A study of Mus musculus with 32 samples.

Results

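The 10 genes followed here mark natural killer (NK) cells and their killing granules in mouse blood: Ncr1, Klrb1c, Klrd1, Klrk1, Klre1, Nkg7, Gzma, Gzmb, Prf1 and Eomes. They were chosen by name, as every non-control probe whose gene name on the array is one of these symbols. The array carries 13 probes for them, 12 of which passed a filter on dim probes, and all 10 genes are among the 15164 genes tested. Whole blood was drawn from individual male mice of C57BL/6 background by cardiac puncture into PAXgene tubes 24 hours after X-rays or sham exposure, and globin transcripts were reduced before labelling. The 32 one-colour Agilent arrays fall into 6 groups. Wild-type (WT) mice were sham-irradiated at 0 Gy (n = 6) or given 8 Gy (n = 5). ATM-/- mice, which lack the kinase that signals DNA double-strand breaks, received 0 Gy (n = 5) or 4 Gy (n = 6). Scid mice, which carry a mutation in the catalytic subunit of DNA-dependent protein kinase (Prkdc), received 0 Gy (n = 5) or 3 Gy (n = 5). The doses were picked to be equally lethal, and since each genotype had its own, the effects of genotype and of dose cannot be told apart among irradiated mice.

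NK cells are lymphocytes that kill infected or transformed cells without a rearranged antigen receptor. Activating receptors such as those encoded by Ncr1, Klrb1c and Klrk1 recognise molecules on the target, and Klrd1 pairs with other lectin-like chains into receptors that can inhibit or activate. Killing is done by granules: perforin (Prf1) makes pores, the granzymes (Gzma, Gzmb) are proteases that enter the target cell, and Nkg7 sits in the granule membrane. The T-box transcription factor Eomes is needed for NK cell maturation. B and T cells need DNA-dependent protein kinase to join their receptor genes, whereas NK cells do not, which is why Scid mice are known to lack mature B and T cells and to keep NK cells. Activated cytotoxic T cells share several of these transcripts, granzymes and perforin above all. In whole blood, fewer NK cells and less RNA per cell cannot be told apart.

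Levels are given on a log2 scale on which 0 is the 75th percentile of all probes of the same array, so a level compares arrays for one gene and does not rank genes. A gene is represented by its brightest probe, and "well above background" is the call of the scanning software for one spot. Differences come from one limma fit over all arrays, p-values were adjusted by Benjamini-Hochberg over the 15164 genes, a gene is called at an adjusted p under 0.05, and intervals are 95% intervals.

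Before any comparison, 3 arrays went against their labels in transcripts that define the genotype. B cell receptor component Cd79b, B cell surface gene Ms4a1 and T cell receptor complex gene Cd3d were not well above background on the arrays labelled WT 0 Gy replicates 3 and 6. Cd79b stood at -2.38 and -2.81 there, against 4.03 to 6.37 on the other 4 WT 0 Gy arrays, and Cd3d at -1.91 and -2.01, against 2.68 to 3.66. On the array labelled Scid 0 Gy replicate 4 all 3 transcripts were well above background, with Cd79b at 5.41, Ms4a1 at 3.68 and Cd3d at 3.27. On the other 4 Scid 0 Gy arrays Cd79b ranged from -3.37 to -2.25 and Cd3d from -3.66 to -1.65. Some irradiated arrays were less clear and were kept. Scid 3 Gy replicate 2 had Cd79b at -0.0083 and Cd3d at 0.60, both well above background, and Ms4a1 not. WT 8 Gy replicate 3 had Ms4a1 at -2.79, not well above background, with Cd79b at -0.57 and Cd3d at 2.99, which were. The arrays labelled WT 0 Gy replicate 3 and Scid 0 Gy replicate 4 lie on slide 4, and WT 0 Gy replicate 6 on slide 8. The probes of Atm and Prkdc were well above background on at most 3 of the 32 arrays and give no check of genotype. These 3 arrays were identified after the data were seen, no array was moved to another group, and the comparisons that use WT 0 Gy or Scid 0 Gy are given with all 32 arrays and without these 3, which leaves 4 arrays in each of both groups.

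**Figure D1:**
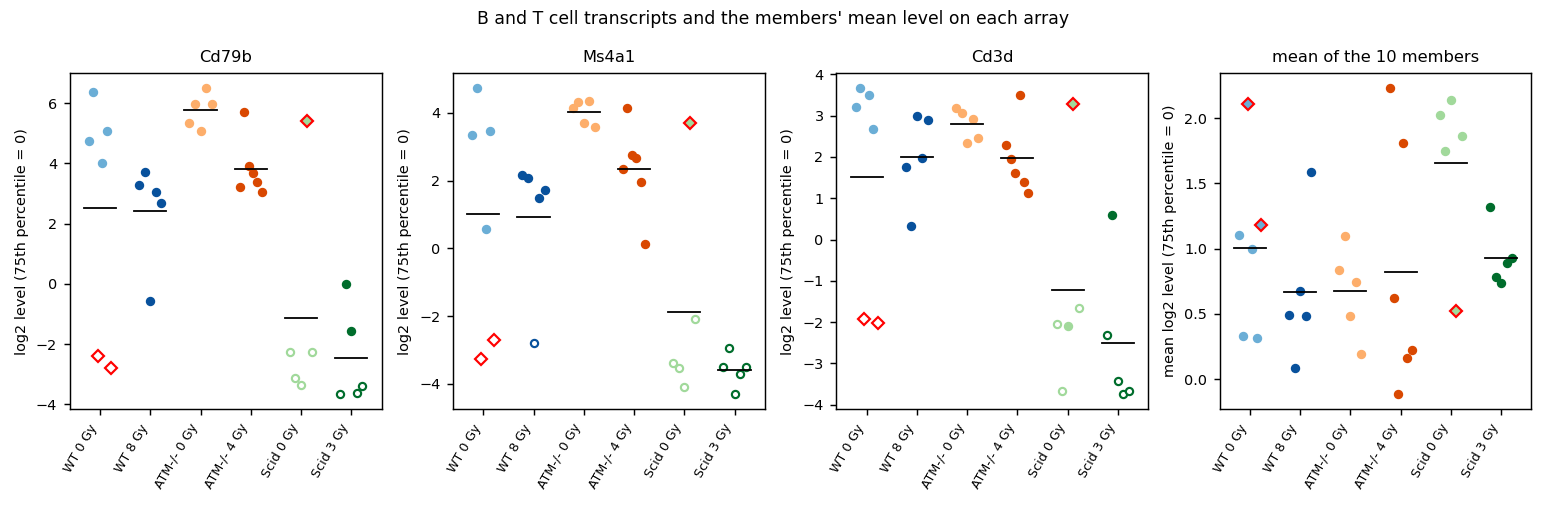
Level (log2, 0 is the array's 75th percentile) of Cd79b, Ms4a1 and Cd3d, and the mean level of the 10 NK genes (last panel), on every array by group, with black bars for group means; in the first 3 panels filled points are well above background and open points are not. Red-edged diamonds mark the 3 arrays against their labels: 2 labelled WT 0 Gy lie low in the lymphocyte transcripts and have NK means of 2.11 and 1.18, and 1 labelled Scid 0 Gy lies high and has an NK mean of 0.52.

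The arrays differed in how much they detected, from 20.04% to 58.63% of probes well above background. The lowest was ATM-/- 4 Gy replicate 6, and WT 8 Gy arrays (45.88% to 58.63%) lay higher than most WT 0 Gy arrays (28.19% to 53.51%). The summed level of 11 B cell transcripts ranged from 2.03 to 7.31 in WT 0 Gy (4.98 to 7.31 without the arrays labelled replicates 3 and 6) and from 1.64 to 6.22 in Scid 0 Gy (1.64 to 4.41 without the array labelled replicate 4). Summed over 19 T cell transcripts, the level was 6.59 to 7.71 in WT 0 Gy (7.38 to 7.71 without those arrays) and 6.22 to 7.50 in Scid 0 Gy with and without. All 8 erythroid transcripts listed fell with irradiation in WT, with a median log2 difference of -4.64 (6 of 8 were called without the 3 arrays against their labels). The part of these other cells in the values below was not tested.

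In blood of unirradiated mice, all 10 genes had a higher mean in Scid than in WT and than in ATM-/-, Klre1 included, which entered through Scid 0 Gy alone. With all arrays the median log2 difference of the 10 genes was 0.64 against WT and 1.14 against ATM-/-, where the median over all genes was 0.09 and 0.14. By limma with Benjamini-Hochberg adjustment, 0 of the 10 were called in either comparison, and 1 and 4 had an unadjusted p under 0.05. Of all genes, 0% were called against WT and 0.125% against ATM-/-, and 3.28% and 10.2% had an unadjusted p under 0.05. When the 3 arrays against their labels were left out, the medians were 1.34 and 1.42, again with all 10 genes higher. Unadjusted p-values under 0.05 then numbered 6 and 5 of the 10, where 23.6% and 20.3% of all genes had one. In that fit 1.99% of all genes were called against WT and 2.95% against ATM-/-, and of the 10 genes 0 and 1 were called. The 3 arrays were picked on B and T cell transcripts and not on these genes. Those from WT 0 Gy nevertheless had its highest means of the 10 genes (2.11 and 1.18), and the one from Scid 0 Gy its lowest (0.52). All values of an array share its RNA and scaling, so the choice is not independent of these genes. The wider medians are therefore no separate support. Spike-in scaling kept only 6 of the 10 higher against WT and 7 against ATM-/-, while the other scalings kept 8 to 10.

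Ncr1, which encodes the activating receptor NKp46, was the 1 member called when the 3 arrays against their labels were left out; with all arrays there was none. In WT 0 Gy the 6 arrays read -2.58 at the lowest, -2.08 at the median and 0.0051 at the highest, and the highest was the array labelled replicate 3. The 5 Scid 0 Gy arrays read -0.45, -0.64, -0.00095, -2.65 and -0.34, and the low one was the array labelled replicate 4. ATM-/- 0 Gy arrays read -1.94, -1.52, -2.32, -1.98 and -3.35. Apart from the 3 arrays against their labels, every Scid array lay above every WT and ATM-/- array at 0 Gy. In the fit without them, Ncr1 was higher in Scid than in ATM-/- by 1.86 (SE 0.49, interval 0.85 to 2.88, limma adjusted p = 0.0350), and was called. Against WT the difference was 1.91 (SE 0.52, interval 0.84 to 2.98), which narrowly missed the threshold at a limma adjusted p of 0.0502. With all arrays the difference from ATM-/- was 1.41 and was not called. Ncr1 was well above background on 20 of the 32 arrays, 3 of the 4 Scid 0 Gy arrays left and 2 of the 5 ATM-/- 0 Gy arrays among them. The Scid 0 Gy array left without that call, replicate 5, read -0.34 and had 25.05% of probes well above background. High as well as low levels are thus imprecise for Ncr1. Its level also went against the share of probes detected (r = -0.55 over 32 arrays), and that share was 25.05% to 41.62% on the Scid 0 Gy arrays left, 34.84% to 53.51% on the WT and 36.60% to 43.39% on the ATM-/- arrays. With the share as a covariate, a fit added after the data were seen, the difference without the 3 arrays was 1.69 from ATM-/- (SE 0.51, limma adjusted p = 0.0876) and 1.59 from WT (SE 0.57, limma adjusted p = 0.293), and neither was called. The probe lies at chr7:4296176-4296235 on the plus strand (mm9).

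Klrd1, Klrk1, Klrb1c and Klre1 lie together on chromosome 6, where the NK receptor genes are clustered. Klrd1 encodes CD94, the shared partner chain of NKG2 receptors. It read 1.69, 1.21, 1.65 and 0.73 on the WT 0 Gy arrays labelled replicates 1, 2, 4 and 5, and 2.18 and 0.70 on those labelled 3 and 6. Scid 0 Gy arrays read 2.36, 1.99, 2.18 and 2.46, and 0.82 on the array labelled replicate 4. Without the 3 arrays the groups did not overlap, with a difference of 0.93 from WT (limma adjusted p = 0.285) and 1.57 from ATM-/- (limma adjusted p = 0.0935), neither of them called. Klrk1 encodes NKG2D, an activating receptor for stress ligands, and its probe was well above background on only 11 arrays. Its difference without the 3 arrays was 1.56 from WT and 1.77 from ATM-/-, at limma adjusted p-values of 0.127 and 0.0741. Klrb1c, which encodes the antigen that defines NK cells in C57BL/6 mice, differed by 0.63 from WT and 1.49 from ATM-/-. Klre1, which pairs with Klri chains, differed by 2.21 and 1.35. Its probe passed the filter only through Scid 0 Gy, which favours a higher level there, and without the 3 arrays it was well above background on 3 of 4 Scid, 2 of 4 WT and 2 of 5 ATM-/- arrays at 0 Gy. Klrk1 was so on 2, 1 and 1 of them. None of these values passed the threshold.

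Granule genes gave the same sign with smaller or more variable differences. Gzma read 5.67, 4.66, 4.79 and 4.46 on WT 0 Gy arrays 1, 2, 4 and 5 and 6.54 and 5.21 on those labelled 3 and 6. Scid 0 Gy arrays read 6.69, 6.38, 6.48 and 6.54, with 3.61 on the array labelled replicate 4. Without the 3 arrays the Scid values spanned 6.38 to 6.69 and lay above all WT values (4.46 to 5.67) and all ATM-/- values (3.97 to 5.72). The fitted differences were 1.63 and 1.82, and neither was called (limma adjusted p = 0.188 and 0.143). The fit uses one spread for all groups, and the SD of Gzma was 2.06 in ATM-/- 4 Gy. Gzmb differed by 1.5 and 1.11, Prf1 by 0.66 and 0.46, and Nkg7 by 0.38 and 0.41. Eomes, the transcription factor, differed by 1.18 from WT and 0.86 from ATM-/-. None of these was called, and Nkg7 was the member with the smallest difference in both comparisons.

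Without the 3 arrays, 4 of the 10 genes did not overlap between Scid and WT (Ncr1, Klrd1, Klrk1, Gzma), where 12.0% of all genes did not. Against ATM-/- there were also 4 (Ncr1, Klrb1c, Klrd1, Gzma), where 11.3% of all genes did not overlap. With all arrays the counts were 0 against WT (0.0264% of all genes) and 1, Klrb1c, against ATM-/- (1.25% of all genes). Within scan day 1, the only day with several arrays of each genotype at 0 Gy, the members' median difference was 0.33 from WT and 0.76 from ATM-/-, and 1.25 in both without the 3 arrays. Day 2 gave 1.22 against WT from 1 Scid array and 2 WT arrays. Platelet transcripts moved the same way without the 3 arrays, with all 6 higher in Scid than in WT, a median of 1.54 and 1 called, and their part was not tested.

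**Figure D2:**
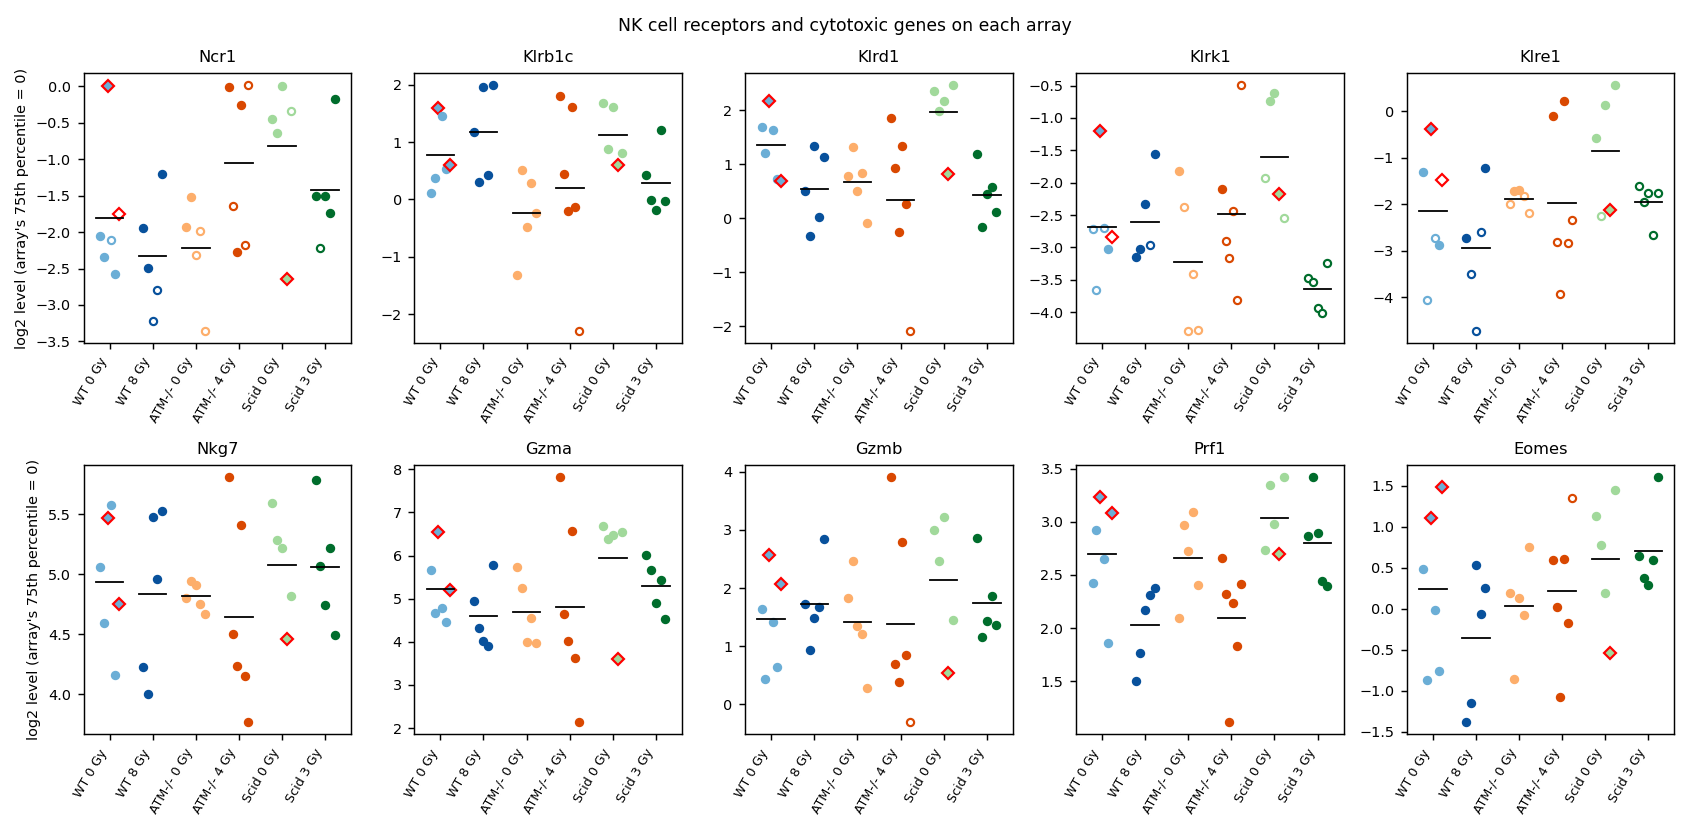
Level of each of the 10 genes (log2, 0 is the array's 75th percentile) on every array by genotype and dose. Filled points are well above background, open points are not, black bars are group means and red-edged diamonds mark the 3 arrays against their labels; for Ncr1 the 2 extreme points, 0.0051 in WT 0 Gy and -2.65 in Scid 0 Gy, are both such arrays.

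ATM-/- and WT did not separate at 0 Gy. With all arrays the median difference of the 10 genes was -0.31 with 1 gene higher, and without the 3 arrays it was 0.01 with 5 higher. No gene of the 10 was called in either fit by limma, and 0% of all genes were called in both. An unadjusted p under 0.05 was found for 0 of the 10, and for 2.27% and 1.15% of all genes. Groups overlapped for all 10 genes, as they did for all but 0.0989% of genes overall. The median within scan day 1 was -0.42, and 0.04 without the arrays against their labels.

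Irradiation of Scid mice with 3 Gy left lower means for most of the genes. With all arrays 9 of 10 were lower than at 0 Gy (median -0.62, all genes 0.01), and in the fit without the 3 arrays against their labels, which drops replicate 4 of Scid 0 Gy, all 10 were lower (median -1.02, all genes -0.01). By limma, an unadjusted p under 0.05 was found for 2 and 3 of the 10, and for 1456 and 1211 of all 15164 genes. None of the 10 was called in either fit, while 1.07% and 0.844% of all genes were. Klrk1 came closest. On the Scid 0 Gy arrays it read -1.93, -0.74, -0.62, -2.18 and -2.54, and at 3 Gy -3.48, -3.54, -3.94, -4.0 and -3.23. Every 3 Gy value lay below every 0 Gy value, but no 3 Gy array and only 3 of 5 at 0 Gy were well above background, so the 3 Gy level is only a bound. Against the lowest signal that counts as well above background on each 3 Gy array, Klrk1 at 0 Gy was 0.993 times as bright, and 1.1 times without the array labelled replicate 4, so no fold of use can be given. The fitted difference, which takes the undetected values as they are, was -2.04 (SE 0.54, interval -3.13 to -0.95, limma adjusted p = 0.0519). It passed the threshold under array median scaling (-2.25, limma adjusted p = 0.0199), without Scid 0 Gy replicate 5 (-2.27, limma adjusted p = 0.0194) and under 2 further settings, a covariate for the share of probes detected and the authors' series matrix, which has a Klrk1 value on 24 of the 32 arrays. Without the 3 arrays it was -2.18 (limma adjusted p = 0.0527).

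Other receptors leaned the same way in Scid without reaching the threshold. Klrd1 read 1.19, -0.16, 0.46, 0.59 and 0.12 at 3 Gy, below all Scid 0 Gy arrays except the one labelled replicate 4, at 0.82. Its difference was -1.53 (SE 0.51, limma adjusted p = 0.166) with all arrays and -1.81 (SE 0.52, limma adjusted p = 0.0976) without the 3 arrays. Klre1 was well above background on 4 of 5 arrays at 0 Gy and on 0 of 5 at 3 Gy. Scid 0 Gy is also the 1 group through which its probe passed the filter, which favours a higher level there, so the following bound is a description. The mean of Klre1 at 0 Gy was 1.61 times the bound for 3 Gy, and 2.01 times without the array labelled replicate 4. The bound was each 3 Gy array's lowest signal among probes well above background or the probe's own, whichever was higher. The 0 Gy mean takes the undetected replicate 2 (-2.26) as it is, so no least fold can be given. The fitted differences were not called (limma adjusted p = 0.683 and 0.659), and the interval with all arrays was -2.53 to 0.34. Gzma read 6.01, 5.67, 4.89, 5.42 and 4.52 at 3 Gy, a difference of -1.22 without the 3 arrays (limma adjusted p = 0.781). Nkg7, Prf1 and Eomes differed least, by -0.17, -0.32 and -0.18 in that fit. Groups did not overlap for Klrk1 alone with all arrays (2.69% of all genes) and for Klrd1, Klrk1 and Gzma without the array against its label (3.47%). The members' median was -0.44 within scan day 1 and -1.15 within day 2, and -0.88 on day 1 without that array.

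In WT, 8 Gy gave no call among the 10 genes, against 7.21% of all genes with all arrays and 4.34% without the 2 arrays labelled replicates 3 and 6. With limma, 1 gene had an unadjusted p under 0.05 with all arrays and 0 without those 2, where 20.7% and 16.1% of all genes did. In both fits 3 genes had a higher mean. Klrk1 was among them, and its probe passed the filter only through WT 8 Gy, which favours a higher level there. The median difference was -0.57 with all arrays and -0.07 without those 2 (all genes -0.02 and -0.05). The size of the median thus depends on those arrays, and its sign turned with normexp background correction (0.14), spike-in scaling (0.60), the share of probes detected as a covariate (0.037) and the authors' series matrix (0.13). Within scan day 1 the median was -0.75, and -0.14 without the array against its label, and within day 2 it was -0.13. Prf1 read 1.5, 1.77, 2.17, 2.31 and 2.38 at 8 Gy, while the 6 arrays at 0 Gy had a lowest value of 1.86, a median of 2.79 and a highest of 3.23. Its difference was -0.67 (SE 0.30, limma adjusted p = 0.194), and -0.44 (SE 0.33, limma adjusted p = 0.559) without the 3 arrays. No gene of the 10 separated the WT groups, as 5.06% of all genes did.

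In ATM-/-, 4 Gy was followed by means close to those at 0 Gy but by a wide spread. The median difference was 0.04, with 5 genes higher and 5 lower, and 0 were called by limma (0.237% of all genes were called). An unadjusted p under 0.05 was found for 1 of the 10, and for 12.1% of all genes. Gzma ranged from 2.15 to 7.83 with a median of 4.34 across the 6 arrays at 4 Gy, and from 3.97 to 5.72 across 5 arrays at 0 Gy. On ATM-/- 4 Gy replicates 1 and 4 all 10 genes lay above their group means, with mean levels of 2.23 and 1.81 over the 10 genes, while the other 4 arrays had -0.11 to 0.62. Replicate 6, at 20.04% of probes detected, had Klrb1c at -2.28 and Klrd1 at -2.08, neither of them well above background. The same array gave the group's highest values of Ncr1 (0.012), Klrk1 (-0.50) and Eomes (1.36), also not well above background. Spike-in scaling moved the median of all genes by -1.62 here and called 11834 of all 15164 genes. Of the 10 genes it called 6, and it gave them a median of -1.58. Ncr1 had the largest difference, 1.16 (SE 0.53, limma adjusted p = 0.360). Its probe was well above background on only 3 of 6 arrays at 4 Gy and 2 of 5 at 0 Gy. Groups overlapped for all 10 genes, whereas 2.12% of all genes did not overlap. The median was 1.36 within scan day 1, with 1 irradiated array, and -0.37 within day 3, with 1 array in each group.

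**Figure D3:**
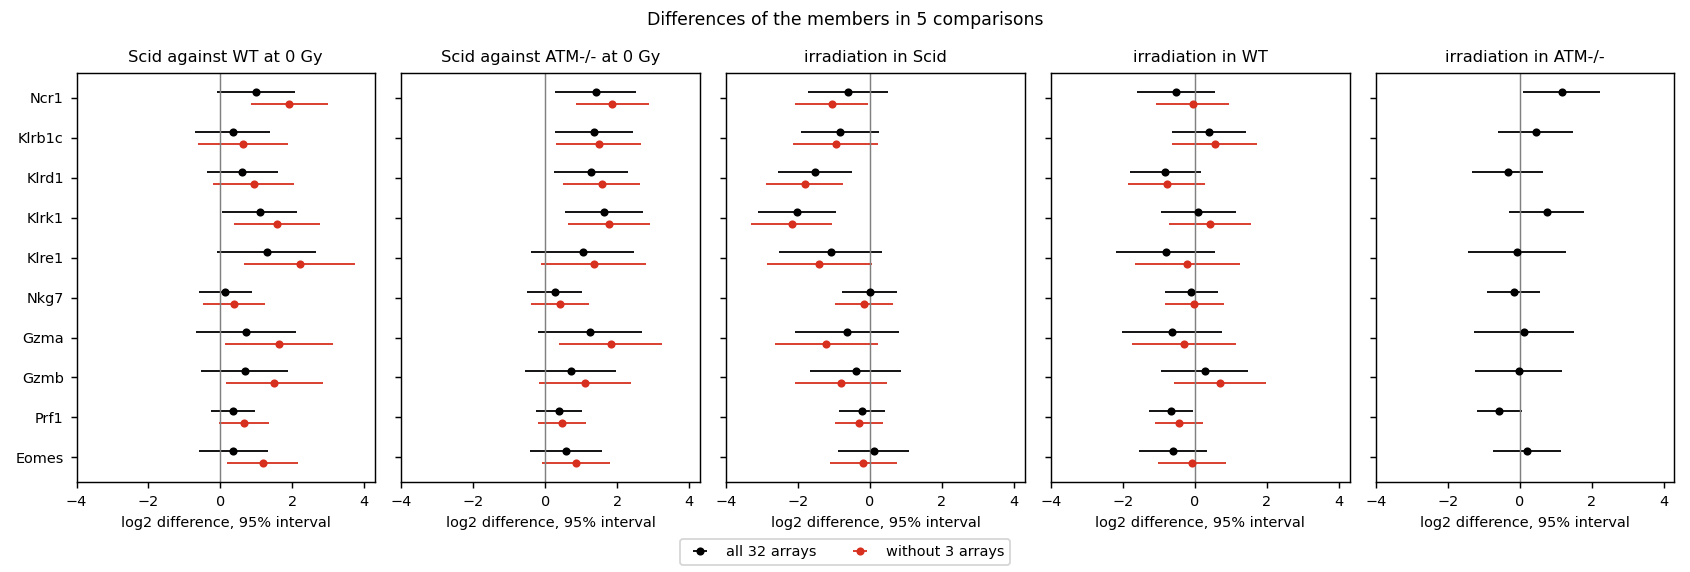
Log2 difference of each of the 10 genes with its 95% interval in 5 comparisons, from all 32 arrays (black) and without the 3 arrays against their labels (red). Against WT and ATM-/- at 0 Gy all Scid differences lie above 0 in both fits, and after 3 Gy in Scid all red points lie below 0.

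Whether the response to irradiation differed between genotypes was tested as a difference of differences, with dose differing too. For ATM-/- minus WT, limma called 0 of the 10 genes with all arrays and without the 3 (0% of all genes both times). Where 8.54% and 5.38% of all genes had an unadjusted p under 0.05, 1 and 0 of the 10 did. The median was 0.58 with all arrays and 0.20 without. It turned to -0.02 with the share of probes detected as a covariate (-0.09 without the 3 arrays as well) and to -0.23 with normexp background correction. With spike-in scaling it turned to -2.21. That scaling moved the median of all genes by -2.78 and called 7 of the 10 genes, where 13621 of all 15164 genes were called. For Scid minus WT the counts called were also 0 (0% and 0.0528% of all genes). In each fit 1 of the 10 had an unadjusted p under 0.05, as did 7.11% and 2.87% of all genes. The median there was -0.18 with all arrays and -1.02 without the 3, where 9 of 10 genes were lower, and it turned to 0.057 with scan day as a block and to 0.083 with only probes detected on all arrays (3 members). Klrk1 had the largest value, -2.12 with all arrays and -2.60 without the 3, at limma adjusted p-values of 0.678 and 0.714. Its probe passed the filter only through WT 8 Gy, which favours a higher level there and so a lower value here.

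Over all 6 groups, the mean level was highest in Scid 0 Gy for every gene except Klrb1c, highest in WT 8 Gy, and Eomes, highest in Scid 3 Gy. Neighbouring groups in this order overlapped for every gene, so the order itself is not resolved by single steps. When the 3 arrays were left out, Scid 0 Gy was highest for all 10 genes, and the step from it to the next group was free of overlap for none but Klrd1 and Gzma. The span between highest and lowest group mean was widest for Klre1 (2.10) and Klrk1 (2.04) and narrowest for Nkg7 (0.43), and without the 3 arrays 2.42, 2.18 and 0.59. For Nkg7 the pooled SD within groups was 0.57 in both. Gzma had means ± SD of 5.22 ± 0.78 (n = 6) in WT 0 Gy and 4.59 ± 0.77 (n = 5) in WT 8 Gy. In ATM-/- it had 4.70 ± 0.77 (n = 5) at 0 Gy and 4.80 ± 2.06 (n = 6) at 4 Gy, and in Scid 5.94 ± 1.31 (n = 5) at 0 Gy and 5.30 ± 0.60 (n = 5) at 3 Gy. On the arrays left without the 3, it had 4.90 ± 0.54 (n = 4) in WT 0 Gy and 6.52 ± 0.13 (n = 4) in Scid 0 Gy.

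Between mice of one group the genes moved together. After group means were subtracted, the 45 pairs of genes had a median Pearson r of 0.41 across the 32 arrays, from -0.03 to 0.87, as a description with no p since all values of an array share its RNA and scaling. The 10 pairs among Klrb1c, Klrd1, Nkg7, Gzma and Gzmb ran from 0.67 to 0.87, and from 0.67 to 0.86 without the 3 arrays. Klrk1, Eomes and Prf1 stood further from the rest. The levels of Eomes and Prf1 also went against the share of probes detected, at r = -0.74 for Eomes and -0.55 for Prf1, as did those of Ncr1 (-0.55) and Klre1 (-0.44), while Gzma had -0.11. With the group means subtracted, the mean of the other 9 genes had r = 0.88 with Gzmb and 0.38 with Klrk1.

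**Figure D4:**
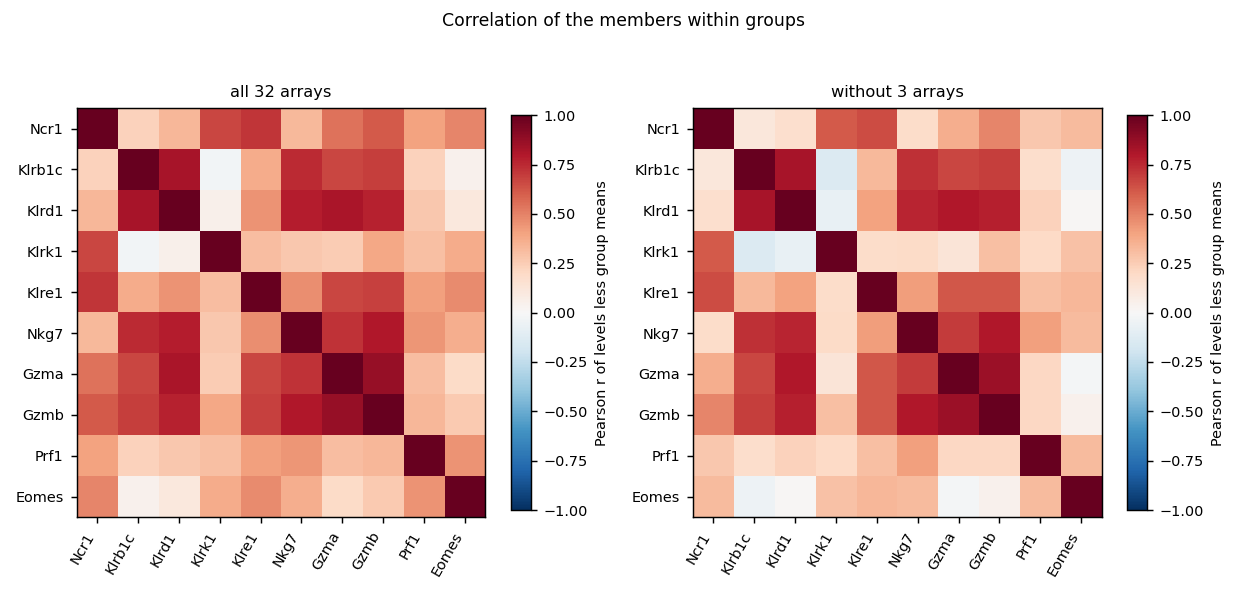
Pearson r between each pair of the 10 genes over 32 arrays after subtraction of group means, as a colour scale, with all arrays (left) and without the 3 arrays against their labels (right). Klrb1c, Klrd1, Nkg7, Gzma and Gzmb hold values of 0.67 to 0.87 with all arrays.

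The promoters of 4 of those 5 genes are shown because their levels moved together (Klrd1 is not printed). Each is the 250 bases before the gene's start in RefSeq (GRCm38.p6), 5′ to 3′ on the gene's strand, and capitals mark TGTGGT or its reverse complement ACCACA, the core that RUNX factors bind.
Nkg7 (chr7:43436888-43437137, plus strand): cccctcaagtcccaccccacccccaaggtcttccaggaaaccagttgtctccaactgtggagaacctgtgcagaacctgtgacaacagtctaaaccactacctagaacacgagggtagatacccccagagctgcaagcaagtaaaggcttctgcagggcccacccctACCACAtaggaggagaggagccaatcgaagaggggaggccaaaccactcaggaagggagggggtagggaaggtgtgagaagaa
Gzma (chr13:113100982-113101231, minus strand): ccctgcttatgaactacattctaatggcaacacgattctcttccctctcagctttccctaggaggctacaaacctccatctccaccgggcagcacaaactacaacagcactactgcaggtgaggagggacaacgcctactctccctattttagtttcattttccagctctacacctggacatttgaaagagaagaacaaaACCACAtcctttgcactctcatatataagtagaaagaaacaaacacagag
Gzmb (chr14:56262335-56262584, minus strand): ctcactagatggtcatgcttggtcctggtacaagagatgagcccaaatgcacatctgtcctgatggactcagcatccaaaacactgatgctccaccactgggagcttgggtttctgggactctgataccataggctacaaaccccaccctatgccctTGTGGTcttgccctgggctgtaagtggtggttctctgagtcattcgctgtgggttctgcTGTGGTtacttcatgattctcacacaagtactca
Klrb1c (chr6:128788642-128788891, minus strand): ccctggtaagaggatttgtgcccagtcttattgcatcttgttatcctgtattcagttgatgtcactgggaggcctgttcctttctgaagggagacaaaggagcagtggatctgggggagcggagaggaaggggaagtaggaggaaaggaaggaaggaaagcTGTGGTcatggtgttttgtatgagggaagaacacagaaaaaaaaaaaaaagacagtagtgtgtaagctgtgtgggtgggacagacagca
Nkg7, Gzma and Klrb1c hold 1 match and Gzmb holds 2. Of the 9 genes with a RefSeq promoter entry, 8 hold TGTGGT on either strand, all but Eomes, where 14.0% of 32851 promoter windows of this length do. For each motif a gene counts if any of its windows holds the letters, while the shares are of single windows. Ncr1 and Klre1 have 2 windows each, and Klre1 holds TGTGGT in only 1 of them. The T-box letters AGGTGT were found in 3 of 9 (Nkg7, Gzma and Prf1), against 11.8% of windows, and the ETS letters AGGAAG in 4 of 9 (Klrb1c, Klre1, Nkg7 and Prf1), against 29.5%. The motifs were chosen after the sequences were seen, and a match is a description of letters and not of binding.

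Nkg7, Klrb1c and Eomes each had a second probe. For Nkg7 both probes lie on the plus strand of chromosome 7 (mm9). The one used, at chr7:50693530-50693589, begins with aaggaatgcagaattctgtctctgtccctc, and the other, at chr7:50693148-50693207, with tctccatattagtggctatggcagtgtaca; both were detected on at least 31 of 32 arrays. For Klrb1c the used probe was well above background on 31 arrays and the other on 13. For Eomes the second probe, whose first bases are shown with a poly(A) signal in capitals (tcataagtcatttttAATAAAtgtggttca), was well above background on 1 array and did not pass the filter, while the one used (gctatgaagaacgagtgcccggtgctatta) was on 31. Used in its place, the second Eomes probe was called lower in irradiated WT (-1.72, limma adjusted p = 0.0177), a difference between signals that were almost all not well above background.

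The 8 other genes whose level was most like the mean of the 10 over 32 arrays were Klra16 (r = 0.90), Klri2 (0.87), Klra1, Klra8, Klra9 and Klra23 (each 0.86), Klra7 (0.85) and Klra4 (0.83). Klra genes encode the Ly49 family of NK receptors for class I molecules, and their copies are near-identical, so their probes may share signal. The median r of all 15154 genes ranked was 0.13, and 122 exceeded 0.7. Leaving out the 3 arrays gave values from 0.82 for Klra4 to 0.90 for Klra16. Klra16 read 1.26 ± 0.84 (SD, n = 6) in WT 0 Gy, 0.77 ± 0.58 (n = 5) in ATM-/- 0 Gy and 1.98 ± 1.05 (n = 5) in Scid 0 Gy. Without the 3 arrays it read 0.97 ± 0.25 (n = 4) in WT and 2.42 ± 0.45 (n = 4) in Scid at 0 Gy.

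A further list of 71 NK and cytotoxic genes, 61 of them tested, held 19 receptors besides adaptors, granule genes, transcription factors and cytokine or migration genes. With all arrays, limma called 1 of the 61 in WT irradiation, where 7.21% of all genes were called, and 1 in ATM-/- irradiation, where 0.237% were. Fcgr3, an Fc receptor of NK and myeloid cells, rose by 1.57 in WT (SE 0.45, limma adjusted p = 0.0265), and was not called without the 3 arrays against their labels. Gzmm, granzyme M, fell by 1.60 in ATM-/- (SE 0.35, limma adjusted p = 0.0427). In the other 6 comparisons 0 were called. By limma, an unadjusted p under 0.05 was found in Scid irradiation for 8 of the 61 and for 1456 of all 15164 genes. At 0 Gy it was found for 2 in ATM-/- against WT (344 of all genes). Scid had 4 against WT (497 of all genes) and 16 against ATM-/- (1543 of all genes). The responses had 5 for ATM-/- minus WT (1295 of all genes) and 6 for Scid minus WT (1078 of all genes). Srgn, the granule proteoglycan, and Fcer1g, a receptor adaptor, the brightest of the list, differed by 0.84 and 0.50 between Scid and WT at 0 Gy. Against ATM-/- they differed by 0.88 and 0.39.

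By role the list was not uniform, and the receptors leaned most like the 10 genes. Between Scid and WT at 0 Gy 17 of 19 were higher (median 0.61, and 1.16 without the 3 arrays), and between Scid and ATM-/- 16 of 19 were (1.16, and 1.44 without). Of all genes, 57.0% and 58.1% were higher with all arrays. Klra genes are among the 19, and since their probes may share signal, the 19 are not separate observations. After 3 Gy in Scid 15 of 19 were lower (median -0.49, and 16 of 19 with -1.0 without). The other roles leaned less or not at all. Between Scid and WT, 11 of 14 granule genes were higher (median 0.16), 8 of 17 cytokine and migration genes (-0.02), 3 of 6 transcription factors (-0.05) and 4 of 5 adaptors (0.42). After 3 Gy in Scid 8 of 14 granule genes were higher (median 0.06), while 16 of 17 cytokine and migration genes were lower (-0.83). In the fit without the 3 arrays limma called Klrb1f, a lectin-like receptor, higher in Scid than in WT by 2.65 (adjusted p = 0.0214) and than in ATM-/- by 2.39 (adjusted p = 0.0225). Klrb1f was well above background on 3 of 4 Scid, 1 of 4 WT and 1 of 5 ATM-/- arrays left at 0 Gy. Gzmc, granzyme C, was higher than in WT by 2.37 (adjusted p = 0.0131), with 3 of 4 Scid and 1 of 4 WT arrays well above background, so the sizes of both differences rest on mostly undetected signals. Klra8 and Klra9 were higher than in ATM-/- by 2.37 and 1.66 (adjusted p = 0.0389 and 0.0403). Ets1, a factor of B, T and NK cells, was lower in Scid, with log2 differences of -2.44 from WT (adjusted p = 0.0368) and -2.26 from ATM-/- (adjusted p = 0.0339). In the same fit 8 of 19 T cell and 6 of 11 B cell transcripts were lower in Scid than in WT, a count that follows in part from the choice of arrays.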

How the data were processed

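Each file holds one array's scanner output. Per the submitters' processing notes spots were read with Agilent Feature Extraction 12.0.2, while the file headers name version 11.5.1.1. The deposited intensity values used here are the processed signal, which per the file headers is background-subtracted. The authors' deposited series matrix holds log2 values, used as an alternative, with unstated scaling and centring. From the intensities, log2 of the signal minus each array's 75th percentile was computed, a probe was kept if well above background on 4 arrays of at least 1 group (18373 of 39429 probes), and the brightest kept probe stood for a gene. limma 3.58.1 in R 4.3.3 fitted 6 group means to 32 arrays, tested first on simulated data. The replicates are separate mice. The number of arrays limits the precision. Scan day and slide were read from the file headers. Probe positions are mm9, per the file headers.

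The members and gene lists were chosen with earlier results of these data known. All 10 members are named. Of the further NK list, up to 4 called genes of largest change per comparison are named, or the 2 brightest where none was called, as are the 8 genes most correlated with the members' mean. Alternatives changed the background correction, scaling, filter, probe, blocks, covariate and arrays. Leaving out the 3 arrays against their labels, alone and with the covariate, was added after the data were seen.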

Additional observations from a re-analysis of the deposited data

Results flagged for a closer look

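In groups of 5 or 6 arrays, 5 of 60 gene and group combinations held 1 array far from the rest, where chance alone gives about 1 in 20. Ncr1 read 0.0051 on the array labelled WT 0 Gy replicate 3, above the other WT 0 Gy arrays. On the array labelled Scid 0 Gy replicate 4, Ncr1 read -2.65, Klrd1 0.82 and Gzma 3.61, each below the other Scid 0 Gy arrays. Both of these arrays are among the 3 whose lymphocyte transcripts go against the label. Eomes read 1.61 on Scid 3 Gy replicate 5, above the other Scid 3 Gy arrays.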

How the results depend on the processing

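The higher median in Scid at 0 Gy kept its sign under all 16 alternatives run on the members' median other than leaving out single arrays (0.23 to 1.34 against WT, 0.27 to 1.46 against ATM-/-), as did the lower median after 3 Gy in Scid (-1.02 to -0.14). Among these, dropping the filter on dim probes and fitting only the groups compared kept the same member probes and group means. Those medians could not change and test nothing. Normexp background correction gave medians of 0.14 for WT irradiation, 0.27 for Scid against ATM-/- and -0.23 for the ATM-/- minus WT response. Spike-in scaling moved the median of all genes by up to -2.78 and gave members' medians of 0.60 for WT irradiation, -1.58 for ATM-/- irradiation, 0.50 for Scid against ATM-/-, -2.21 for the ATM-/- minus WT response and -0.95 for Scid minus WT. It called 6 members in ATM-/- irradiation, where 11834 of all 15164 genes were called. In the ATM-/- minus WT response it called 7, where 13621 of all genes were called. It turned 5 signs in ATM-/- irradiation, 1 of them with a call (Eomes, -1.43). In that response it turned 8, 5 of them with a call (Klrb1c (-2.73), Klrd1 (-2.29), Klrk1 (-2.13), Prf1 (-2.68) and Eomes (-1.99)). With only probes detected on all arrays (3 members) the median of Scid against ATM-/- was 0.38. The share of detected probes as a covariate gave 0.037 for WT irradiation, and the authors' series matrix (no value for Prf1, and Klrk1 on 24 and Klre1 on 26 arrays) gave 0.13 there and -1.20 for the Scid minus WT response. Without the 3 arrays against their labels, chosen after the data were seen, Scid against WT gave 1.34 with 302 genes called in place of 0, the Scid minus WT response -1.02, and 1 member, Ncr1, was called for Scid against ATM-/-. With the covariate added to that, 0 members were called, and the medians were 0.067 for WT irradiation, -0.086 for the ATM-/- minus WT response and -1.02 for Scid minus WT. Klrk1 was the 1 member called in Scid irradiation with array median scaling, with the covariate (-1.99, limma adjusted p = 0.0360) and in the series matrix (-2.44, limma adjusted p = 0.00475). The causes of these shifts were not tested.

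Leaving out single arrays gave medians of -0.76 to -0.27 for WT, -0.43 to 0.29 for ATM-/- and -1.02 to -0.46 for Scid irradiation. At 0 Gy it gave -0.49 to -0.05 for ATM-/- against WT, 0.48 to 0.98 for Scid against WT and 0.95 to 1.42 for Scid against ATM-/-. The responses ran from 0.16 to 0.78 (ATM-/- minus WT) and from -0.59 to 0.17 (Scid minus WT). Members called stayed at 0 except in Scid irradiation (0 to 1). Over all members and comparisons, 177 of 1240 values changed sign under the other alternatives. That total includes the settings without the filter and with only the groups compared, where no sign could change.

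With the replicate block the WT irradiation median was -0.39 and 0 members were called. Same-numbered arrays did not deviate together (76 pairs, median r = 0.04, 31 over 0.1), so the numbers do not pair mice. Genes called for WT irradiation numbered 1093, and 462 with normexp, 1959 with spike-in scaling, 538 with slide as a block and 552 with the covariate. For probes not well above background, signal over background sets the limit: Klrk1 and Klre1 were detected on 11 and 13 arrays.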
